A study of Mus musculus with 24 samples.

Results

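The levels of 10 genes of the growth hormone and Stat5 pathway were examined in mouse liver: Ghr, Stat5b, Igf1, Igfals, Socs2, Cish, Bcl6, Cux2, Mup20 and Mup3. They are 10 of the 55469 rows of the liver table, and each was found as the row whose Ensembl identifier maps to the gene's symbol. The genes were chosen by name, with earlier results of these same livers in view. Their values and test results are therefore a description and give no independent support for a difference. All 10 passed the filter on low values, a mean of at least 10 normalised counts over the livers.

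RNA was sequenced from the liver of 12 male mice, 10 weeks of age and on a C57BL/6N background, 3 in each of 4 genotypes. The genotypes were wild type (WT) and homozygous germline deletion of tRNA-Phe-1-1, of the gene tRNA-Phe-2-1 or, in the third line, of tRNA-Phe-3-1, each a single gene of the family that encodes the phenylalanine tRNA, made by CRISPR-Cas9 editing. Each deletion is present in every tissue. The paper describes WT and mutant mice as matched by age and litter, but also states that the mice of its experiments came from different litters. The litter of each mouse and the hour of sampling are not given in the sources used here. The 3 deletion lines are compared with the same WT livers, so line and litter cannot be told apart from genotype. Brain was sequenced from the same 4 genotypes and is used only for the last comparison. Each liver is named by its genotype and the letter of its replicate (A, B or C).

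Growth hormone is released by the pituitary in pulses and binds its receptor on hepatocytes. The receptor activates the kinase Jak2, which phosphorylates the transcription factors Stat5a and Stat5b, and these enter the nucleus and switch on Igf1, its binding partners and the inhibitors Socs2 and Cish. The hormone's secretory rhythm differs between male and female mice, and in male liver it maintains male-biased transcripts, among them many major urinary protein (Mup) genes, and keeps female-biased transcripts such as Cyp2a4 low. Bcl6 is a repressor that binds many of the same sites as Stat5 and whose transcript is lowered by growth hormone, and Cux2 is a transcription factor known as female-biased in liver.

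The liver libraries held between 32276896 and 51584522 reads assigned to genes, so counting error is small beside the differences between livers, except at the lowest counts, those of Cux2 and of Cish in WT livers A and C. The Y-linked transcripts Ddx3y, Uty, Kdm5d and Eif2s3y ranged from 712 to 3684 normalised counts and Xist from 2.01 to 14.3, as in male mice. The hepatocyte markers were present in all 12 livers, and the summed count of the pituitary and pancreas transcripts Gh, Prl, Ins1, Ins2 and Prss1 did not exceed 2.25. In whole tissue, fewer cells of a type and less RNA per cell cannot be told apart.

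Stat5 proteins bind a palindrome, TTCNNNGAA, in which N is any base, and the promoter windows of the genes were searched for it, as the only motif searched. A window holds 300 bases around an annotated start site, most of them upstream, and the palindrome reads the same on both strands. Windows were at hand for 8 of the 10 genes, 14 windows in all (RefSeq, GRCm38.p6), and 5 of these held the motif, belonging to 3 genes: Igfals, Cish and Bcl6. Among all 32851 promoter windows of that length 8.3% held it, and 0.457% held it more than once. The windows below, with the motif in capitals, are shown because they are the only ones of these genes with more than 1 match, and because Cish and Bcl6 are the transcripts that differed most between single livers. The Cish window is chr9:107296409-107296708 on the plus strand, with matches that begin 0 and 11 bases after the start site. The Bcl6 window is chr16:23981234-23981533 on the minus strand, with matches that begin 168, 122 and 88 bases before a start site that lies within the gene. A match describes the letters of the window and is no evidence that Stat5 binds there.
Cish: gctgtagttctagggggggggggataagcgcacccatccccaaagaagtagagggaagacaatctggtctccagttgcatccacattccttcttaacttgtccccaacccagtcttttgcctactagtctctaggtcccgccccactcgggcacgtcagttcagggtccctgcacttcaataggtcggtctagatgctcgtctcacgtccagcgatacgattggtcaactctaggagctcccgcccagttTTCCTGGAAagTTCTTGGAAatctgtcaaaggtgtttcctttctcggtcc
Bcl6: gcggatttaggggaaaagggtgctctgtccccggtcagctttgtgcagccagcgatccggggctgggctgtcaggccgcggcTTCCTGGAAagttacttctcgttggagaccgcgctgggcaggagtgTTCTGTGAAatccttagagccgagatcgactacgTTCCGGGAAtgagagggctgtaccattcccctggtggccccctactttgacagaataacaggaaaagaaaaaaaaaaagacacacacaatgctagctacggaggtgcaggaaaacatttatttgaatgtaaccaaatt

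Stat5b, the main Stat5 protein of the hepatocyte, was lower in every tRNA-Phe-1-1-/- liver than in every other liver. Stat5b (ENSMUSG00000020919.11, chromosome 11, 100780731 to 100859004) had 3376, 2772 and 3591 normalised counts in WT livers A, B and C, and 1707, 1370 and 1972 in tRNA-Phe-1-1-/- livers. It had 2771, 3312 and 3053 in tRNA-Phe-2-1-/- livers and 3087, 2489 and 3125 in tRNA-Phe-3-1-/- livers, which overlap with WT and with each other. The highest tRNA-Phe-1-1-/- liver thus lay below the lowest liver of the other genotypes.

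In the limma fit to all 12 livers, with Benjamini-Hochberg adjustment over the 15856 genes tested, the log2 difference of Stat5b between tRNA-Phe-1-1-/- and WT was -0.95 ± 0.15 (SE; adjusted p = 0.00154), a 1.94-fold lower level. Against tRNA-Phe-2-1-/- livers the log2 difference was -0.87 (adjusted p = 0.00308) and against tRNA-Phe-3-1-/- livers it was -0.79 (adjusted p = 0.00486). In the other lines the log2 difference from WT was -0.09 (95% interval -0.41 to 0.23) for tRNA-Phe-2-1-/- and -0.16 (95% interval -0.48 to 0.16) for tRNA-Phe-3-1-/-. Stat5a, the neighbouring and closely similar gene, had 563, 591 and 487 normalised counts in tRNA-Phe-1-1-/- livers and 877, 659 and 700 in WT livers, without overlap (log2 difference -0.44, adjusted p = 0.146). Reads shared between the Stat5 genes may have been divided unevenly by the authors' quantification, but the sum of the genes separated the same livers: 2270, 1961 and 2459 in tRNA-Phe-1-1-/- against 3432 to 4291 in WT and 2844 to 4130 in the other lines.

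Ghr, the growth hormone receptor (ENSMUSG00000055737.12, chromosome 15, 3317755 to 3583352), was also lowest on average in tRNA-Phe-1-1-/- livers, with less separation. It had 21737, 19714 and 18556 normalised counts in the WT livers, and 15607, 9696 and 16995 in tRNA-Phe-1-1-/- livers. It had 24444, 24021 and 22465 in tRNA-Phe-2-1-/- livers, above every WT liver, and 16853, 23098 and 24616 in tRNA-Phe-3-1-/- livers. The tRNA-Phe-1-1-/- livers lay below every WT liver, and liver B was the lowest of all 12.

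The log2 difference of Ghr between tRNA-Phe-1-1-/- and WT was -0.54 ± 0.19 (SE) and did not pass (adjusted p = 0.0769, limma). With every liver kept, Ghr passed by DESeq2 (-0.51, adjusted p = 0.0474), which called 3482 genes in this comparison, beside 2751 by limma. Without tRNA-Phe-1-1-/- liver C it passed in the limma fit (adjusted p = 0.0382). That liver held the most Ghr of its genotype, so leaving it out had to widen the difference, and nothing is read from this call. The differences from tRNA-Phe-2-1-/- (-0.79, adjusted p = 0.0193) and from tRNA-Phe-3-1-/- (-0.63, adjusted p = 0.0468) passed. The former was lost without tRNA-Phe-2-1-/- liver A (adjusted p = 0.0574) or B (0.0690). The latter was lost without any 1 of 10 livers, with adjusted p from 0.0567 to 0.145, and was kept without tRNA-Phe-1-1-/- liver C or tRNA-Phe-3-1-/- liver A, and these groups overlapped. Without tRNA-Phe-1-1-/- liver B the log2 difference was -0.29 from WT and -0.38 from tRNA-Phe-3-1-/-. The Ghr row counts the full-length receptor and the shorter transcript for the circulating binding protein together.

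**Figure D1:**
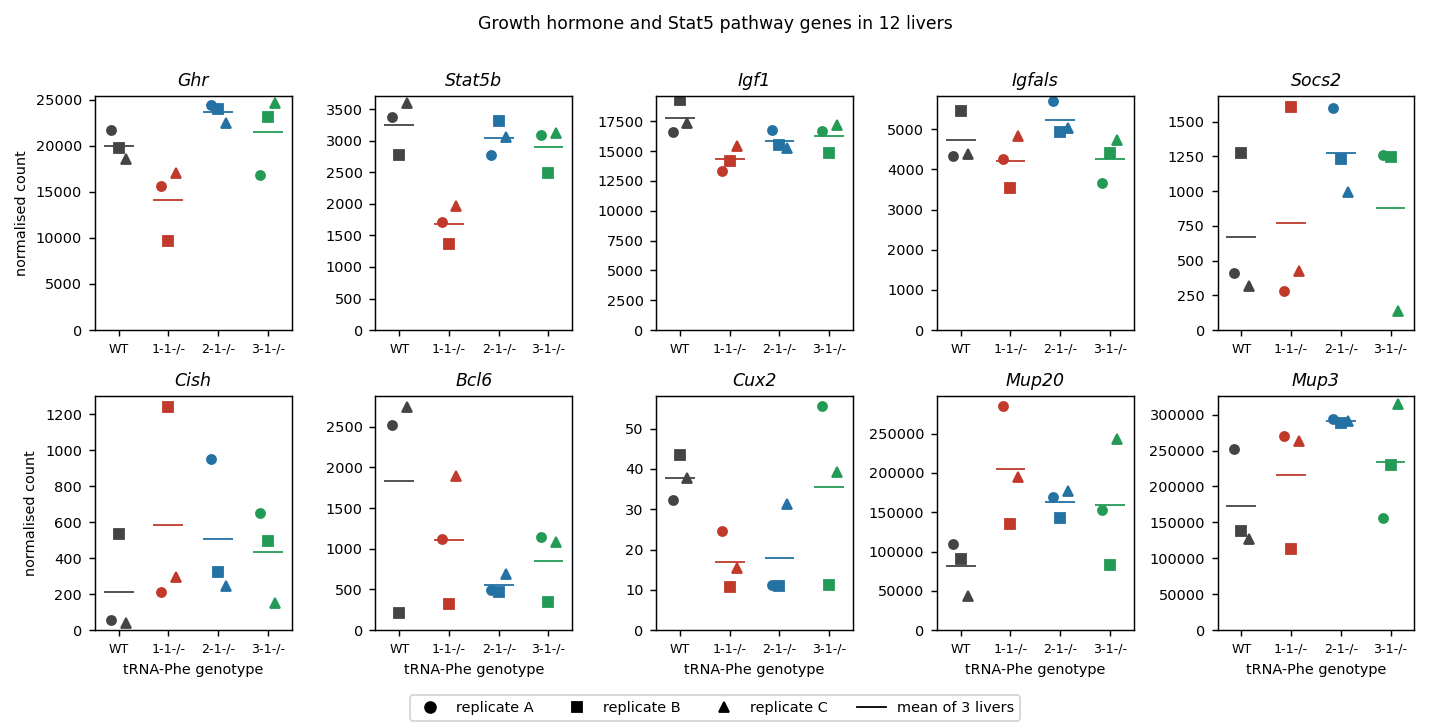
Normalised counts of the 10 genes in each of the 12 livers, with a linear axis from 0 for each gene, the 4 genotypes on the x axis (the tRNA-Phe gene deleted), a marker shape for each replicate letter and a line at the mean of 3 livers. Stat5b is lower in the 3 tRNA-Phe-1-1-/- livers (1370 to 1972) than in the 9 others, whereas the 4 genotypes overlap in Socs2 and the WT livers span from the lowest to the highest Bcl6 value (212 to 2746).

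Igf1 and Igfals encode parts of the circulating growth factor complex that the hormone maintains. Igf1 (ENSMUSG00000020053.18, chromosome 10, 87858265 to 87937047), insulin-like growth factor 1, had 16584, 19296 and 17346 normalised counts in the WT livers, and 13325, 14172 and 15420 in tRNA-Phe-1-1-/- livers. It had 16741, 15530 and 15233 in tRNA-Phe-2-1-/- livers and 16661, 14869 and 17165 in tRNA-Phe-3-1-/- livers. All 3 tRNA-Phe-1-1-/- livers lay below the WT range and the other lines overlapped with it.

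Igf1 was 1.24-fold lower in tRNA-Phe-1-1-/- than in WT livers (log2 difference -0.31 ± 0.09, SE, adjusted p = 0.0377, limma). This call was lost when WT liver B or C was left out (adjusted p = 0.136 and 0.0878), when tRNA-Phe-1-1-/- liver A or B was (0.135 and 0.0715) and when tRNA-Phe-2-1-/- liver B or C was (0.0552 and 0.0544). The log2 difference from WT was -0.16 (95% interval -0.36 to 0.04) in tRNA-Phe-2-1-/- and -0.13 (95% interval -0.33 to 0.07) in tRNA-Phe-3-1-/- livers. Igf1 varied least of the 10 genes, with a spread between livers of a genotype of 0.10 on the log2 scale, the residual standard deviation of the fit.

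Igfals (ENSMUSG00000046070.9, chromosome 17, 24877844 to 24882011), the acid-labile subunit that stabilises circulating Igf1, had 4340, 5447 and 4382 normalised counts in the WT livers, and 4268, 3543 and 4840 in tRNA-Phe-1-1-/- livers. It had 5707, 4927 and 5018 in tRNA-Phe-2-1-/- livers and 3661, 4416 and 4723 in tRNA-Phe-3-1-/- livers. Every line overlapped with WT. The log2 differences from WT were -0.17 (95% interval -0.47 to 0.13) in tRNA-Phe-1-1-/-, 0.15 (-0.15 to 0.45) in tRNA-Phe-2-1-/- and -0.15 (-0.45 to 0.15) in tRNA-Phe-3-1-/- livers.

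Socs2, Cish and Bcl6, the transcripts that respond fastest to a pulse of the hormone, differed widely between single livers of WT, of tRNA-Phe-1-1-/- and of the tRNA-Phe-3-1-/- line, and Socs2 and Bcl6 differed less between tRNA-Phe-2-1-/- livers. Socs2 (ENSMUSG00000020027.18, chromosome 10, 95383903 to 95417321), a feedback inhibitor of receptor signalling, had 411, 1278 and 318 normalised counts in the WT livers, and 282, 1609 and 428 in tRNA-Phe-1-1-/- livers. It had 1598, 1233 and 994 in tRNA-Phe-2-1-/- livers and 1263, 1243 and 137 in tRNA-Phe-3-1-/- livers. The highest liver held 11.8-fold the lowest, and livers at the low and the high end occurred in every genotype but tRNA-Phe-2-1-/-.

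Cish (ENSMUSG00000032578.7, chromosome 9, 107296659 to 107302784), another inhibitor of the same family, had 56.7, 536 and 40.2 normalised counts in the WT livers, and 213, 1238 and 295 in tRNA-Phe-1-1-/- livers. It had 948, 323 and 246 in tRNA-Phe-2-1-/- livers and 648, 496 and 150 in tRNA-Phe-3-1-/- livers, a 30.8-fold range over the 12. WT livers A and C were the lowest of all, below every deletion liver, and WT liver B was the fourth highest.

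Bcl6 (ENSMUSG00000022508.5, chromosome 16, 23965050 to 23988866) had 2526, 212 and 2746 normalised counts in the WT livers, and 1117, 322 and 1900 in tRNA-Phe-1-1-/- livers. It had 498, 466 and 693 in tRNA-Phe-2-1-/- livers and 1140, 345 and 1078 in tRNA-Phe-3-1-/- livers. WT livers held both the highest and the lowest value of the 12, a 12.9-fold range.

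No comparison of genotypes passed for these genes. For tRNA-Phe-1-1-/- against WT the log2 difference was 0.07 (95% interval -1.81 to 1.96) for Socs2, 1.98 (-0.16 to 4.12) for Cish and -0.37 (-2.37 to 1.62) for Bcl6. Without WT liver B the difference of Cish reached 3.13 (adjusted p = 0.0351, limma). That liver held the most Cish of the WT livers, so leaving it out had to raise the difference, and nothing is read from this call. For tRNA-Phe-2-1-/- against WT the 95% interval was -0.70 to 3.06 for Socs2, and the difference was 1.97 (-0.17 to 4.10) for Cish and -1.07 (-3.06 to 0.93) for Bcl6. For tRNA-Phe-3-1-/- against WT it was 0.12 (-1.76 to 2.00), 1.75 (-0.39 to 3.89) and -0.60 (-2.59 to 1.40) in the same order. All 9 intervals include 0 and are over 3 log2 units wide, so that a difference of several-fold could go undetected with 3 livers a group.

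The residual standard deviation on the log2 scale was 1.26 for Socs2, 1.43 for Cish and 1.34 for Bcl6, against a median of 0.23 over the 15856 genes tested. Only 1.59%, 1.17% and 1.36% of the genes tested varied more than each of these between livers of a genotype. The value was 0.77 for Cux2, 0.60 for Mup20, 0.51 for Mup3, 0.27 for Ghr, 0.20 for Stat5b, 0.18 for Igfals and 0.10 for Igf1. Ghr, Stat5b, Igf1 and Igfals were thus near or under the median spread, and Socs2, Cish and Bcl6 far above it.

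Within single livers Socs2 and Cish were mostly high together, and Bcl6 was mostly low where they were high. The 3 livers with the most Bcl6 were WT C, WT A and tRNA-Phe-1-1-/- C, and they held 318 to 428 Socs2 counts. The 3 with the least Bcl6 were WT B, tRNA-Phe-1-1-/- B and tRNA-Phe-3-1-/- B, and they held 1243 to 1609. The ratio of Bcl6 to Socs2 ranged from 0.166 in WT liver B to 8.64 in WT liver C, 2 livers of the same genotype. Among the others tRNA-Phe-3-1-/- liver A stood apart, with 1140 Bcl6 and 1263 Socs2 counts together.

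Over the 12 livers, on the log2 scale, Socs2 and Cish had Pearson's r = 0.753 and Spearman's rho = 0.930, and r = 0.871 after each genotype's mean was taken off. Socs2 and Bcl6 had r = -0.706 and rho = -0.671, and -0.681 after centring. Cish and Bcl6 had r = -0.779 and rho = -0.699, and -0.821 after centring. Without the 2 livers farthest from the median of the first gene named, r was 0.894, -0.881 and -0.552 for these pairs. Before centring, r over the 45 pairs among the 10 genes ranged from -0.779 to 0.782, with a median of -0.016. After centring, other pairs were of similar size: 0.911 for Ghr and Mup3, 0.864 for Stat5b and Bcl6, and -0.766 for Stat5b and Cish. The genes were chosen with these livers known, and the points share their libraries. The coefficients are therefore given as a description, with no test.

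**Figure D2:**
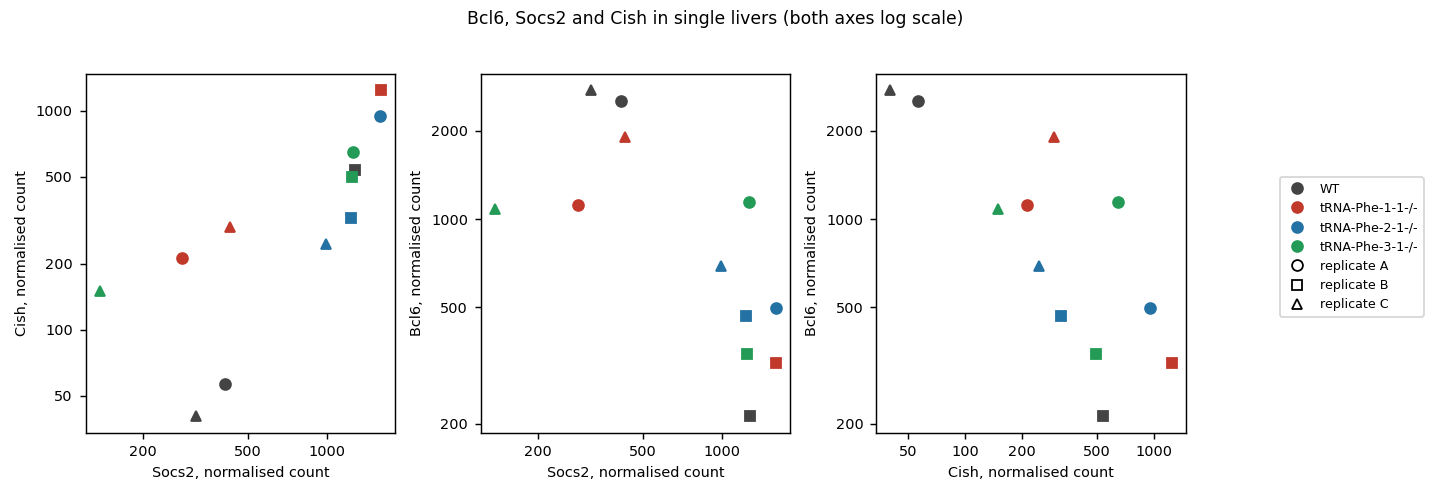
Each point is 1 liver, coloured by genotype with the marker shape for the replicate letter, and both axes are normalised counts on a log scale. Cish is mostly high where Socs2 is high, and Bcl6 is mostly low there. WT livers A and C (2526 and 2746 Bcl6 counts) and WT liver B (212) are at opposite ends. In tRNA-Phe-3-1-/- liver A Socs2 (1263) and Bcl6 (1140) are high together.

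Cux2 (ENSMUSG00000042589.18, chromosome 5, 121857962 to 122050415) was near the filter on low values. It had 32.2, 43.5 and 37.6 normalised counts in WT livers, 24.5, 10.6 and 15.3 in tRNA-Phe-1-1-/-, 11.2, 10.9 and 31.3 in tRNA-Phe-2-1-/- and 55.7, 11.3 and 39.2 in tRNA-Phe-3-1-/- livers. All tRNA-Phe-1-1-/- livers and all tRNA-Phe-2-1-/- livers lay below every WT liver, and tRNA-Phe-3-1-/- livers lay on both sides. The log2 differences from WT were -1.19 (95% interval -2.43 to 0.06), -1.20 (-2.45 to 0.04) and -0.34 (-1.59 to 0.90), and none passed (adjusted p = 0.178, 0.347 and 0.809, limma). At these counts the sampling of reads adds to the spread between livers.

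Mup20 and Mup3 encode major urinary proteins, carriers of pheromones that male liver makes in large amounts. Mup20 (ENSMUSG00000078672.2, chromosome 4, 62011337 to 62054143), also known as darcin, had 109531, 91075 and 43939 normalised counts in the WT livers, and 285158, 134690 and 195003 in tRNA-Phe-1-1-/- livers. It had 169763, 142041 and 176902 in tRNA-Phe-2-1-/- livers and 153005, 82509 and 243082 in tRNA-Phe-3-1-/- livers. Every tRNA-Phe-1-1-/- liver and every tRNA-Phe-2-1-/- liver lay above the WT range, and tRNA-Phe-3-1-/- liver B lay inside it.

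Mup20 was 2.58-fold higher in tRNA-Phe-1-1-/- than in WT livers (log2 difference 1.36 ± 0.42, SE, adjusted p = 0.0435, limma). The call was lost without WT liver B (adjusted p = 0.0714) or C (0.170), without tRNA-Phe-1-1-/- liver A (0.154) or C (0.0816), without any 1 tRNA-Phe-2-1-/- liver (0.0594 to 0.0604) and without tRNA-Phe-3-1-/- liver A (0.0527). The difference from WT was 1.09 in tRNA-Phe-2-1-/- (adjusted p = 0.270) and 0.94 in tRNA-Phe-3-1-/- livers (adjusted p = 0.298). WT liver C was the lowest of all 12, and without it the difference of tRNA-Phe-1-1-/- from WT was 0.97.

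Mup3 (ENSMUSG00000066154.11, chromosome 4, 62083476 to 62087317) had 252749, 137675 and 127173 normalised counts in the WT livers, and 269855, 113375 and 262678 in tRNA-Phe-1-1-/- livers. It had 293582, 288266 and 291299 in tRNA-Phe-2-1-/- livers, all above WT, and 156183, 230149 and 315179 in tRNA-Phe-3-1-/- livers. The log2 differences from WT were 0.29 (95% interval -0.52 to 1.09), 0.83 (0.02 to 1.63) and 0.45 (-0.35 to 1.26), with adjusted p = 0.639, 0.326 and 0.589 (limma). Mup genes are near-identical copies between which the authors' estimated counts were divided, so the level of a single Mup gene is uncertain.

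The other Mup genes fell into the same livers as Mup3. The summed count of 20 other Mup genes was 480857, 84094 and 73556 in WT livers, and 839665, 87787 and 452411 in tRNA-Phe-1-1-/- livers. It was 748988, 596298 and 788566 in tRNA-Phe-2-1-/- livers and 203228, 268682 and 1083347 in tRNA-Phe-3-1-/- livers. WT livers B and C and tRNA-Phe-1-1-/- liver B were the lowest in this sum, and they were also the lowest in Mup3, while their Mup20 counts lay between 43939 and 134690.

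Cyp2a4, a female-biased cytochrome P450, had 7.82, 3514 and 1612 normalised counts in WT livers A, B and C. It was at 6.59, 228 and 4.09 in tRNA-Phe-1-1-/- livers, at most 12.8 in tRNA-Phe-2-1-/- livers, and at 1535, 34.9 and 5.03 in tRNA-Phe-3-1-/- livers. The 4 livers with over 200 counts were the 4 with the lowest summed count of the other Mup genes. The difference between genotypes did not pass for Cyp2a4 (adjusted p = 0.265, 0.274 and 0.669 for the 3 lines against WT, limma).

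**Figure D3:**
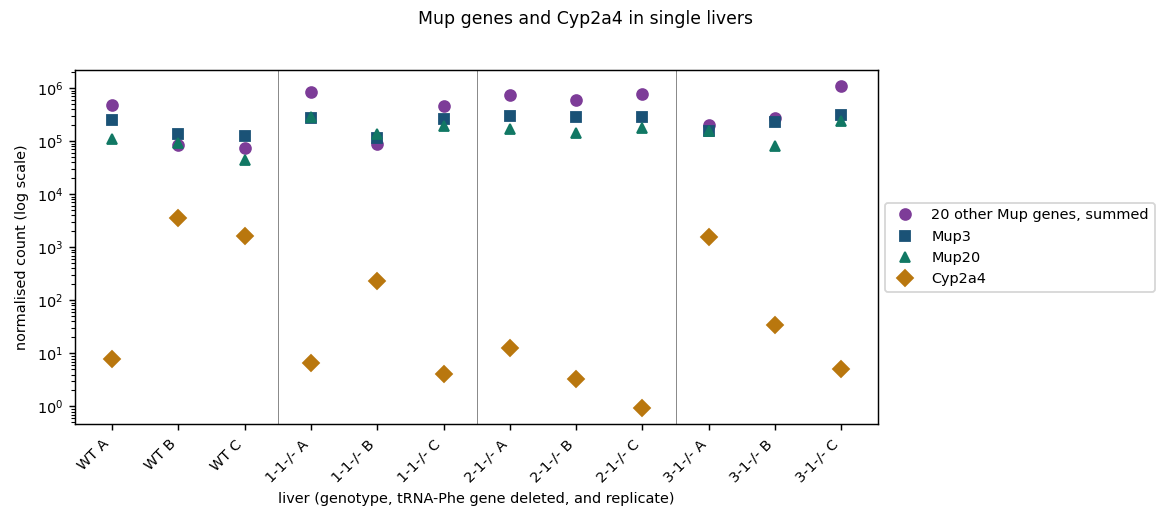
Normalised counts (log scale) of Mup3, Mup20, the sum of 20 other Mup genes and Cyp2a4 in each of the 12 livers, in the order of genotype and replicate. In WT livers B and C and tRNA-Phe-1-1-/- liver B the Mup sum is 73556 to 87787 and Cyp2a4 228 to 3514, whereas Cyp2a4 is at most 12.8 in the tRNA-Phe-2-1-/- livers.

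The calls are set beside those over all genes. In tRNA-Phe-1-1-/- against WT livers 3 of 10 passed, Stat5b and Igf1 lower and Mup20 higher, where 17.3% of all genes tested passed (9.08% lower and 8.27% higher). The count of 3 came down to 1 without WT liver C, tRNA-Phe-1-1-/- liver A, or tRNA-Phe-2-1-/- liver B or C, and Stat5b was then the gene that passed. Over all genes 1472, 1610, 2368 and 2375 passed in these settings, beside 2751 with all livers. Since the 10 genes were chosen with this contrast known, nothing is read from their count.

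In tRNA-Phe-2-1-/- against WT livers 0 of 10 passed, where 0.132% of all genes did, and 2 of 10 had an unadjusted p under 0.05, beside 14.9% of all genes. There edgeR called 0 of the 10, and DESeq2 0, beside 3.12% of all genes. In tRNA-Phe-3-1-/- against WT livers 0 of 10 passed in the limma fit, where 0.883% of all genes did, and 1 had an unadjusted p under 0.05, beside 16.1% of all genes. There edgeR called 0 of the 10, and DESeq2 0, beside 4.84% of all genes. Between lines, 2 of 10 passed in tRNA-Phe-1-1-/- against tRNA-Phe-2-1-/- (15.9% of all genes), and 2 of 10 in tRNA-Phe-1-1-/- against tRNA-Phe-3-1-/- (16.1% of all genes), Stat5b and Ghr each time. Between tRNA-Phe-2-1-/- livers and those of tRNA-Phe-3-1-/- 0 of 10 and 0% of all genes passed in the limma fit, with 0 of the 10 at an unadjusted p under 0.05 (6.68% of all genes) and 0 by edgeR or DESeq2. The F-test for any difference among the 4 genotypes called 1 of 10, Stat5b (adjusted p = 0.00368, limma), and 17% of all genes.

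The groups of 3 livers did not overlap for 5 of 10 genes in tRNA-Phe-1-1-/- against WT (34.8% of all genes tested), namely Ghr, Stat5b, Igf1, Cux2 and Mup20. They did not overlap for 4 of 10 in tRNA-Phe-2-1-/- against WT (25.4% of all genes) and for 0 of 10 in tRNA-Phe-3-1-/- against WT (19.9% of all genes). The median log2 difference of the 10 genes from WT was -0.24, 0.20 and -0.02 in the 3 lines, beside medians near 0 over all genes (-0.005, 0.001 and 0.009). The 3 comparisons with WT share the WT livers, so their values are not independent of each other.

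**Figure D4:**
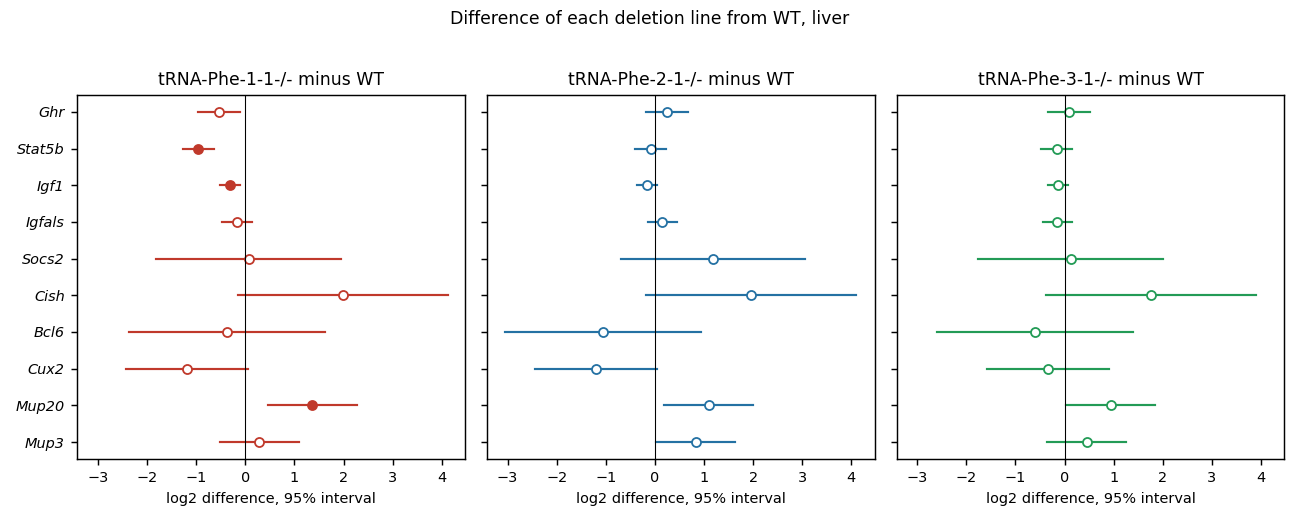
Log2 difference of each gene from WT in the 3 deletion lines, from the limma fit on log2(normalised count + 1) of 12 livers, with 95% intervals and filled points where the adjusted p is under 0.05. Stat5b, Igf1 and Mup20 are filled in tRNA-Phe-1-1-/- (-0.95, -0.31 and 1.36), and the intervals of Socs2, Cish and Bcl6 are the widest in all 3 lines.

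Of 83 further genes of the pathway, in 5 lists written from general knowledge, 71 passed the filter and 16 of these passed the test in tRNA-Phe-1-1-/- against WT livers, 9 higher and 7 lower. That is 22.5% of those tested, beside 17.3% of all genes. Earlier results of these data were known when the lists were written, so nothing is read from the difference between these shares. In tRNA-Phe-2-1-/- against WT livers 0 of 71 passed (0.132% of all genes), and 33 had an unadjusted p under 0.05 (14.9% of all genes). There edgeR called 0 of the 71 and DESeq2 7 (3.12% of all genes). Of these 33 genes 16 were Mup genes, whose counts share reads. In tRNA-Phe-3-1-/- against WT livers 1 of 71 passed, Igfbp5 (0.883% of all genes), and 14 had an unadjusted p under 0.05 (16.1% of all genes). There edgeR called 1 of the 71 and DESeq2 6 (4.84% of all genes).

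Among 16 signalling genes, 3 rose and 1 fell in tRNA-Phe-1-1-/- livers, with a median log2 difference of 0.21 beside -0.005 for all genes. Socs3, an inhibitor induced by Stat3 downstream of interleukin-6, rose from 121 to 169 normalised counts in WT to 604 to 984 (log2 difference 2.51 ± 0.31, SE, adjusted p = 0.000529, limma). Ptpn1, a phosphatase that acts on Jak2, rose by 0.89 (adjusted p = 0.000643) and Stat3, the transcription factor of interleukin-6 signalling, by 0.81 (adjusted p = 0.00207) on the same scale. Their values in tRNA-Phe-1-1-/- livers lay above every WT liver. Prlr, the prolactin receptor, fell by 1.35 (adjusted p = 0.0197), a call lost without WT liver B or C or tRNA-Phe-1-1-/- liver A or C (0.0611 to 0.0735). Jak2 had a log2 difference of 0.02 (adjusted p = 0.872).

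Among 11 genes of the IGF axis, 1 rose and 1 fell in tRNA-Phe-1-1-/- livers. Igfbp2, a binding protein for insulin-like growth factors, fell from 8147 to 14759 normalised counts in WT to 5247 to 5751 (log2 difference -1.03 ± 0.18, SE, adjusted p = 0.00289, limma). Igfbp4, another binding protein, rose by 0.43 (adjusted p = 0.0226), and this call was lost without WT liver A or C or tRNA-Phe-1-1-/- liver A or C (0.0566 to 0.0778). Igfbp7 and Igfbp5 had log2 differences of 0.25 and -0.45 (adjusted p = 0.130 and 0.189). In tRNA-Phe-3-1-/- livers Igfbp5 fell from 188 to 279 normalised counts in WT to 79.7 to 113 (log2 difference -1.38, adjusted p = 0.0294), a call lost without WT liver A (0.0759) or C (0.119), tRNA-Phe-2-1-/- liver C (0.0501), or tRNA-Phe-3-1-/- liver B (0.0790) or C (0.0599).

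Among 16 male-biased genes, 3 rose and 2 fell in tRNA-Phe-1-1-/- livers. Ugt2b38, a glucuronosyltransferase, rose from 228 to 341 normalised counts in WT to 1221 to 1766 (log2 difference 2.37 ± 0.22, SE, adjusted p = 0.000118, limma). Elovl3, a fatty acid elongase, fell by 2.08 (adjusted p = 0.00198), with 2084 to 3505 counts against 8586 to 22092. C6, a component of complement, rose by 1.48 (adjusted p = 0.00625). Cyp2u1 fell by 0.82 (adjusted p = 0.0207), a call lost without any 1 WT liver or without tRNA-Phe-1-1-/- liver B or C (0.0501 to 0.0678). The male-biased genes thus moved in opposite directions, and the median of the list was 0.07.

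Among 20 female-biased genes, 10 passed the filter, and 2 of these rose and 3 fell in tRNA-Phe-1-1-/- livers. Acot3, an acyl-CoA thioesterase, fell from 181 to 506 normalised counts in WT to 40.5 to 61.7 (log2 difference -2.63 ± 0.51, SE, adjusted p = 0.00531, limma). Cyp2b9 had 28.3, 347 and 658 counts in WT livers and 0, 1.76 and 2.05 in tRNA-Phe-1-1-/- livers (adjusted p = 0.00716), a level at which its fold change depends on the constant added. Cyp17a1, a steroid hydroxylase, rose by 2.44 (adjusted p = 0.0159), with 5343 counts in tRNA-Phe-1-1-/- liver B, 1064 in A and 905 in C against 223 to 412 in WT, and lost its call without WT liver A (0.0514). Trim24, a transcriptional co-regulator, rose by 0.78 (adjusted p = 0.0201), a call lost without WT liver A (0.0582) or B (0.0604) or tRNA-Phe-1-1-/- liver A (0.0637).

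Among the other Mup genes, 18 of 20 passed the filter and 0 passed the test in tRNA-Phe-1-1-/- against WT livers, with 0 at an unadjusted p under 0.05 (31.8% of all genes) and 0 by edgeR or DESeq2. In that comparison their median log2 difference was 1.36, and in tRNA-Phe-2-1-/- livers it was 3.26 with 16 of 18 at an unadjusted p under 0.05 (14.9% of all genes) and 0 adjusted. In tRNA-Phe-3-1-/- livers it was 1.82, with 1 of 18 at an unadjusted p under 0.05 (16.1% of all genes) and 0 adjusted. Mup8, Mup15, Mup7 and Mup17 had the lowest adjusted p in tRNA-Phe-1-1-/- against WT (0.190 to 0.272, limma). Without WT liver A, the WT liver in which these genes were high, Mup7 (5.03, adjusted p = 0.0227), Mup15 (7.62, adjusted p = 0.0342) and Mup17 (6.61, adjusted p = 0.0449) passed. Leaving out the highest WT liver had to raise the difference, so nothing is read from these calls. These genes were also low in tRNA-Phe-1-1-/- liver B, where Mup7 had 9656 counts, against 173747, 2540 and 2050 in WT livers A, B and C.

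**Figure D5:**
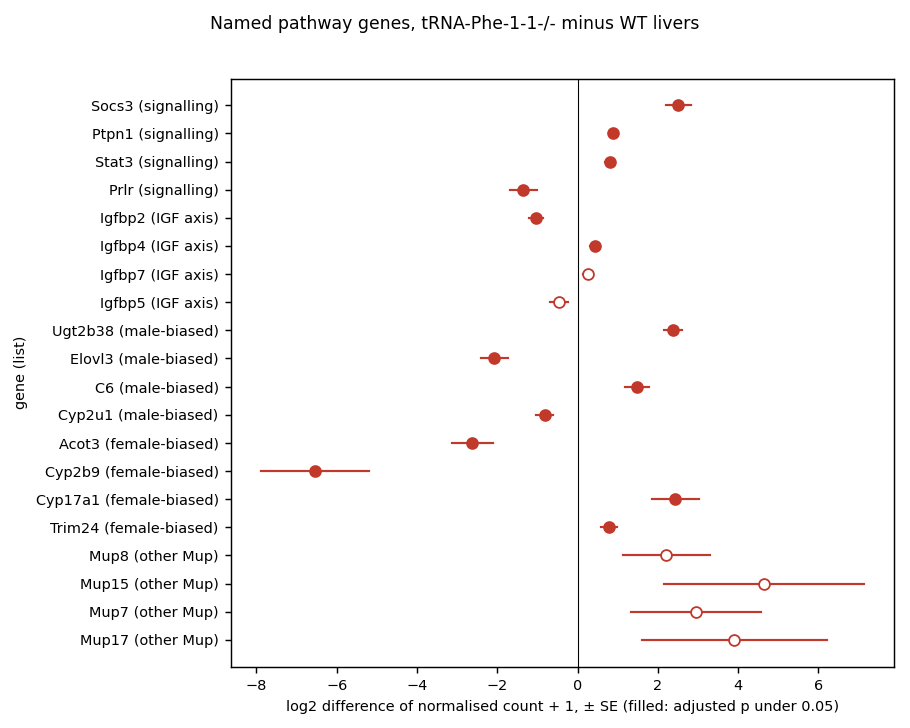
Log2 difference, with its standard error, between tRNA-Phe-1-1-/- and WT livers of up to 4 genes from each of the 5 lists, those with the lowest adjusted p, with filled points where the adjusted p is under 0.05. The female-biased Acot3 and Cyp2b9 and the male-biased Elovl3 and Cyp2u1 lie to the left. The female-biased Cyp17a1 and Trim24, the male-biased Ugt2b38 and C6, and Socs3 lie to the right. The 4 Mup genes are not filled.

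Other transcripts moved with the tRNA-Phe-1-1-/- livers in which Stat5b was low. All 8 acute phase genes tested were called higher there than in WT, beside 8.27% of all genes. Their summed count was 205548 to 413368 against 81723 to 102859 in WT, 82295 to 90653 in tRNA-Phe-2-1-/- and 73822 to 100102 in tRNA-Phe-3-1-/- livers. Saa1, serum amyloid A, had 32101, 43648 and 9799 normalised counts in tRNA-Phe-1-1-/- livers A, B and C, and 316 to 1395 in WT. Liver B held the most Saa1 and the least Stat5b and Ghr, and liver C the least Saa1 and the most Stat5b and Ghr of the 3. Igf1 was lowest in liver A instead (13325, beside 14172 in B and 15420 in C). Their part in the levels of Stat5b, Ghr and Igf1 was not tested.

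Of 8 clock genes 4 were called higher and 3 lower in tRNA-Phe-1-1-/- than in WT livers, beside 8.27% and 9.08% of all genes. Dbp, a circadian output gene, had 2776, 853 and 3069 normalised counts in tRNA-Phe-1-1-/- livers and 28.7 to 67.5 in WT livers. It was also at 2173 and 1343 in tRNA-Phe-3-1-/- livers B and C, whose Stat5b counts were 2489 and 3125. Of 5 genes that respond to feeding 1 was called higher there, Pck1, and 1 lower, Srebf1, which was also called lower in tRNA-Phe-3-1-/- livers. Pck1, a gluconeogenic enzyme that rises in fasting, had 93794 to 106521 counts in tRNA-Phe-1-1-/- and 25031 to 29917 in WT livers. The part of the hour of sampling, of feeding or of these transcripts in the levels of the 10 genes was not tested.

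Markers of other cell types also differed between these livers. The neutrophil list summed to 73.7 to 220 normalised counts in tRNA-Phe-1-1-/- and 7.82 to 34.6 in WT livers, through S100a8 and S100a9, of which both were called higher, whereas Ly6g, Ngp and Camp did not exceed 4.09 counts in any liver. Of the erythroid markers 2 of 3 were called lower in tRNA-Phe-1-1-/- livers, with a list sum of 8819 to 10742 against 15235 to 19345 in WT. Of the sinusoidal endothelial markers 2 of 5 were called higher, Lyve1 and Pecam1, and 1 lower, Kdr, and the list summed to 8065 to 10499 against 10064 to 11413. Of the stellate cell and fibroblast markers 1 of 6 was called higher, Dcn, with sums of 14036 to 16121 against 13855 to 15317. The macrophage list had 0 of 6 called, with sums of 8391 to 11770 against 8875 to 9652, and the cholangiocyte list 0 of 4, with sums of at most 298 in every liver. In these lists limma made the calls. Of the 8 hepatocyte markers 2 were called higher, Fgb and Hnf4a, and the list summed to 2376283 to 2909098 in tRNA-Phe-1-1-/- and 2858987 to 3491125 in WT livers. Their part in the result was not tested.

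The genes whose pattern over the 12 livers was most like that of Igf1, Socs2 and Bcl6 were found among the other protein-coding genes tested, by the mean absolute difference of log2 values centred on each gene's mean. For Igf1 they were Cpped1 (0.06) and Slc10a5 (0.06), beside a mean absolute deviation of Igf1 itself of 0.11. For Socs2 they were Gask1b (0.51) and Onecut1 (0.53), beside 1.04 for Socs2 itself. Onecut1, a hepatocyte transcription factor, ranged from 189 to 4086 normalised counts and was highest in tRNA-Phe-1-1-/- liver B and lowest in tRNA-Phe-3-1-/- liver C, as Socs2 was. For Bcl6 they were Bmf (0.49) and Wnt5b (0.63), beside 1.02 for Bcl6. The distances were between 0.49 and 0.63 for the genes nearest to Socs2 and Bcl6 and 0.06 for those nearest to Igf1, which itself varied less.

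In brain the same genes had other levels, given as CPM (reads scaled to each library's total) because the tables of the 2 tissues were normalised separately. Ghr had 6.98 to 13.7 CPM in the 12 brains and 243 to 591 in the 12 livers, and Igf1 had 6.07 to 10.9 and 317 to 454. Cux2, a marker of upper-layer cortical neurons, had 32.4 to 109 in brain and 0.254 to 1.33 in liver. Socs2 had 19.4 to 25.6 in brain and 3.02 to 40.4 in liver, and Bcl6 had 10.8 to 20.9 and 5.00 to 65.6, so that the wide spread of these transcripts was in liver. Stat5b had 26.3 to 45.1 in brain and 34.4 to 85.8 in liver. Igfals, Mup20 and Mup3 did not exceed 0.236, 6.06 and 4.84 CPM in brain.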

How the data were processed

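After trimming (Trim Galore) and STAR alignment to GRCm38.p6, the authors estimated counts per GENCODE gene with Salmon and normalised them per tissue with DESeq2 size factors. The deposited values are this signal, normalised estimated counts, and dividing by each library's smallest step gave whole reads for 100% of values (tolerance 0.001). The authors' comparison tables hold fold changes and p-values and were not used. Symbols came from GENCODE through Ensembl identifiers (93.2% of 55434 matched).

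Log2(normalised count + 1) of 12 livers was fitted with limma 3.58.1 (trend, 2-sided, genotype only) for 15856 genes with a mean of at least 10, with Benjamini-Hochberg adjustment over all of them and a threshold of 0.05, so fold changes understate changes of low genes. Fits were tested on simulated data. Alternatives were edgeR 4.0.16 and DESeq2 1.42.0 on recovered reads, other pseudocounts, filters, scalings and fits, and leaving out each liver. Livers of a genotype are separate mice as far as the sources say. No pair of replicates was alike within sampling noise (lowest chi-square per degree of freedom 14.1).

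Members and lists were chosen with earlier results of these data known. Named were all 10 members, from each list up to 4 genes with the lowest adjusted p in tRNA-Phe-1-1-/- against WT plus genes called in the other lines, and the 2 nearest patterns to Igf1, Socs2 and Bcl6. Cyp2a4, Stat5a, Jak2 and the genes named from the acute phase, clock, feeding and cell marker lists were added after values were seen. The lettered replicates were not treated as pairs: 3 of 18 same-letter pairs had correlated deviations over 0.1. The highest same-letter correlation was 0.236, and a pair with different letters reached 0.368. Such correlations cannot show whether livers shared a litter or a day.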

Additional observations from a re-analysis of the deposited data

How the results depend on the processing

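Stat5b was called in tRNA-Phe-1-1-/- against each of the other 3 genotypes in all 24 settings, with a log2 difference from WT of -1.08 to -0.81. The call of Igf1 (-0.37 to -0.23) and that of Mup20 (0.97 to 1.63) against WT each held in 13 of 24 settings, and of Ghr in 22 of 24 against tRNA-Phe-2-1-/-, 9 of 24 against tRNA-Phe-3-1-/- and 2 of 24 against WT. No log2 difference of a member or named gene that passed the test changed sign. The cause of lost calls was not tested, except that left-out livers leave fewer samples.

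Of the 10 members, 3 were called in tRNA-Phe-1-1-/- against WT, and 1 with no filter on low values, with a variance prior without trend and with only the 2 groups compared. Over all genes these settings called 2359 (of 28430), 2331 and 1808, beside 2751 (of 15856). Against tRNA-Phe-3-1-/- 2 were called, and 1 in those 3 settings, with the replicate block and by edgeR. Over all genes these gave 2050, 2062, 931, 2151 and 2546 in the same order, beside 2550. The F-test called 1, but 2 with a mean of at least 50 or quantile normalisation and 3 by DESeq2. For the F-test, calls over all genes were not counted in the other settings, so nothing is read from this change. Leaving out a liver gave 1 to 3 against WT, 1 to 2 against tRNA-Phe-2-1-/-, 1 to 2 against tRNA-Phe-3-1-/- and 1 to 2 in the F-test. Over all genes it gave 1472 to 2871 against WT, 1150 to 2622 against tRNA-Phe-2-1-/- and 1512 to 2474 against tRNA-Phe-3-1-/-. Of the further pathway genes, in tRNA-Phe-2-1-/- against WT 0 were called, 1 with a mean of at least 50, 3 with only the 2 groups compared and 7 by DESeq2, and 0 to 1 without a liver. The same settings called 21, 26, 167, 495 and 0 to 41 over all genes. In tRNA-Phe-3-1-/- 1 pathway gene was called, 2 after quantile normalisation, 6 by DESeq2, 0 with only the 2 groups compared and 0 with the replicate block, and 0 to 1 without a liver. The same settings called 140, 148, 767, 8, 9 and 2 to 213 over all genes. In tRNA-Phe-1-1-/- the range of pathway genes called without a liver was 11 to 17, beside 16.

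Over all genes, calls in tRNA-Phe-1-1-/- against WT went from 1472 (without WT C) to 3482 (DESeq2), beside 2751. They went from 0 to 495 in tRNA-Phe-2-1-/- (main 21) and from 2 to 767 in tRNA-Phe-3-1-/- (main 140), DESeq2 giving the highest. Letters gave the replicate block: with it 2 members were called against WT in tRNA-Phe-1-1-/- (Igf1 was lost), 2347 genes in all, and 3 of 12 livers correlated best with their own letter, so letters are treated as names. Depth limits Cux2 and the lowest Cish values.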
